A study of Mus musculus with 20 samples.

Results

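Quadriceps muscle of an injured limb was compared between mice given an antibody against GDF8 (GDF8 Ab) and mice given a placebo antibody (PLA Ab). The injury was anterior cruciate ligament transection (ACLT) of 1 knee, and RNA was taken 7 days later from that limb and from the uninjured control limb. The comparison described here took the 5 GDF8 Ab libraries and the 5 PLA Ab libraries of the ACLT limb, 10 of the 20 libraries of the study, and every gene with at least 1 CPM (a read count per 1000000 counted reads of its library) in at least 5 of those 10 libraries. That left 13137 of the 17415 genes in the table, of which 4506 had a group mean under 10 CPM in both ACLT groups. By the labels the groups differed only in the antibody. By the study's methods the control limb was the opposite leg of an injured mouse and not a limb of an uninjured one. Adult C57BL/6J mice and Col1-eGFP mice, a collagen reporter strain, of both sexes received the antibodies, and the labels do not give the strain of a library. By the study's legends the sequenced quadriceps came from the experiment in which collagen reporter cells were counted. C57BL/6J mice were named for a longer dosing experiment. The strain of each sequenced mouse is not stated. A library was made from 1 mouse without pooling, and no RNA from a mouse without antibody was analysed here.

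GDF8, or myostatin, is a TGF-beta family ligand that muscle fibres secrete and that restrains muscle mass through activin type II receptors and SMAD2 and SMAD3. Injured muscle is normally cleared and rebuilt in an ordered way: monocytes and macrophages remove debris, satellite cells divide and fuse into new fibres that carry embryonic myosin and the fetal acetylcholine receptor, and fibroblasts deposit matrix. Most groups of genes below are the known markers of one of these steps.

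Depth, read from the smallest steps of the CPM values, was 19200000 to 23100000 reads in the 10 ACLT libraries, so that 3 reads corresponded to 0.130 to 0.156 CPM. The 15 muscle fibre markers added up to 127160 to 225080 CPM in these libraries, and the 50 highest genes held 42.7 to 46.6% of the total in the GDF8 Ab libraries and 46.3, 40.7, 44.4, 34.9 and 30.4% in PLA Ab libraries 1 to 5. The PLA Ab group was the more variable one: the median SD of a gene over its 5 libraries was 0.322 on the log2(CPM + 1) scale, against 0.174 with GDF8 Ab. Of the 2406 genes called lower with GDF8 Ab, PLA Ab library 5 was the highest placebo library for 2243 and library 4 for 126. Y-linked genes were expressed in GDF8 Ab library 3 and in PLA Ab libraries 1 and 3, and not in the other 7. PLA Ab libraries 1 and 3 also had the lowest placebo levels of collagens, macrophage and cell-cycle genes, so within that group sex and these levels cannot be told apart. In bulk tissue, fewer cells of a type and less RNA per cell cannot be told apart either.

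The antibody's target was first. Mstn, which encodes GDF8, measured 40.6, 41.3, 52.6, 56.8 and 48.9 CPM in PLA Ab libraries 1 to 5 and 38.7, 83.1, 45.3, 72.8 and 61.5 CPM in GDF8 Ab libraries 1 to 5. The groups overlapped, and the log2 difference of 0.28 ± 0.20 (SE) did not pass (limma adjusted p = 0.305). The antibody acts on the protein, so this transcript does not check the labels.

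Most genes that differed were lower with GDF8 Ab. A gene was called at an adjusted p under 0.05 in a limma fit of log2(CPM + 1) over the 4 groups of the study. By that rule 2406 genes (18.3% of those tested) were lower and 103 (0.784%) were higher, and 852 of the lower ones but 6 of the higher ones differed by 1 or more on the log2 scale. Folds on this scale understate the change of genes near 1 CPM. As a stricter description, all 5 GDF8 Ab libraries were below all 5 PLA Ab libraries for 566 genes (4.31%) and above them for 41 (0.312%). Single genes with such separation have an exact permutation p of 0.00794 (two-sided), the smallest that 5 against 5 libraries can give. With no difference between the groups, a gene separates in either direction at that same rate. The share above, 0.312%, was no larger than this chance rate gives in 1 direction. For higher genes, such as Timp4, Pccb and Igkc below, lack of overlap is therefore a description and no added support.

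How many genes passed depended on which libraries were in the fit and how they were weighted. The full fit used 1 SD per gene for all 4 groups. For genes called lower, the median SD was 0.665 with PLA Ab and 0.216 with GDF8 Ab in the ACLT limb. In the control limb it was 0.198 and 0.184. For genes with such unequal spread, the SE and adjusted p of the full fit are too small. With the 10 ACLT libraries fitted alone no gene passed (smallest adjusted p = 0.176), although 3069 genes were lower and 235 higher at an unadjusted p under 0.05. When each group was allowed its own weight, 1286 lower (9.79%) and 18 higher genes (0.137%) passed, 1302 of them also in the unweighted fit. Without PLA Ab library 4, 37 lower and 1 higher gene were left, and without GDF8 Ab library 4 there were 114 and 3. In total 395 genes were called without PLA Ab library 5, 262 without GDF8 Ab library 5, 1280 and 1046 without GDF8 Ab libraries 1 and 2, and more than in the full fit without PLA Ab library 1 (5290) or 3 (4441). A core of 38 genes (0.289% of those tested), 37 lower (0.282%) and 1 higher (0.00761%), was called in the same direction whichever of the 10 ACLT libraries was left out. Of the lists below, it included 6 cell-cycle, 5 repair macrophage, 3 fusion, 3 liver X receptor and 2 acetylcholine receptor genes. Only some members are named as core genes below.

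Genes under 10 CPM were not a quieter part of the comparison. Of the 4506 genes under that mean in both groups, 816 (18.1%) were lower and 19 (0.422%) higher, against 1590 (18.4%) and 84 (0.973%) of the other 8631. By the mean of the 10 libraries, the called-lower share was 8.68% of 1037 genes under 2 CPM, 24.5% of 4026 between 2 and 10 CPM, 17.8% of 6793 between 10 and 100 CPM and 9.6% of 1281 above 100 CPM. The called-higher share was largest above 100 CPM, at 2.89%. Protein-coding genes were called lower more often (19.3% of 12177) than long noncoding RNAs (7.18% of 571), a difference that was not tested. Across all tested genes the median difference was -0.20, and 77.4% of genes were below 0. Scaling by median of ratios moved that median to 0.001 and the calls to 1212 lower and 524 higher, so small differences below have a meaning only relative to this shift.

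**Figure D1:**
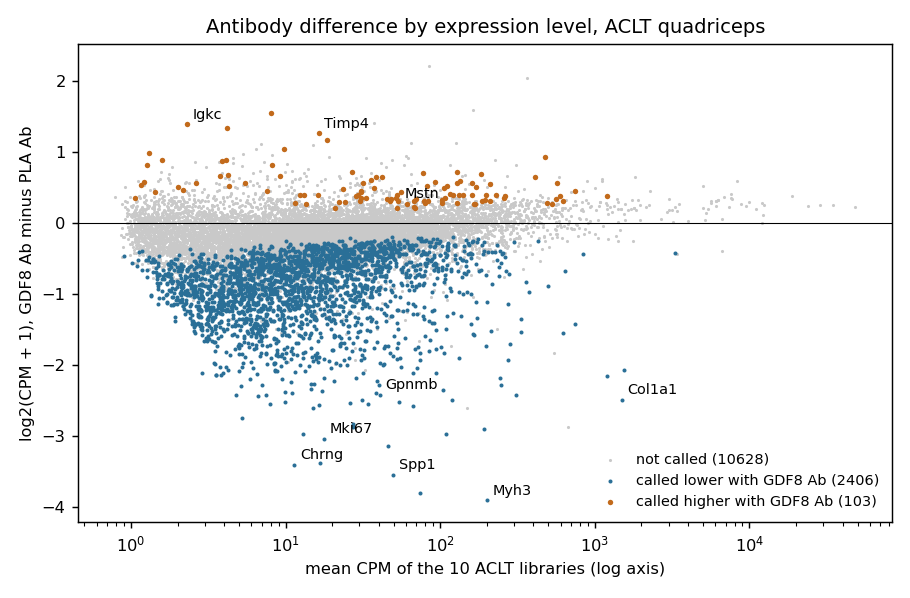
Each point is 1 of the 13137 tested genes, with the mean CPM of the 10 ACLT libraries on a log axis and the difference in mean log2(CPM + 1), GDF8 Ab minus PLA Ab, on the other; the 2406 genes called lower are blue and the 103 called higher are orange. The lower genes reach -3.90 (Myh3) and lie over most of the range of levels, while most higher genes differ by less than 1.

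Cell-cycle genes had the largest share of members lower without overlap of any list examined. Of 24 tested members, 22 (91.7%) were called lower and none higher, with a median difference of -1.59. For 14 (58.3%) all 5 GDF8 Ab libraries were below all 5 PLA Ab libraries. Over all tested genes these shares were 18.3% and 4.31%. Members that met the filter through PLA Ab alone, such as Ccnb2 below, were not taken out of the 14. Their lack of overlap is no added support. Mki67, the proliferation marker Ki-67, measured 3.6, 21, 9.61, 47.6 and 85.9 CPM in PLA Ab libraries 1 to 5 and 2.39, 3.42, 2.49, 0.326 and 0.802 CPM in GDF8 Ab libraries 1 to 5. The lowest placebo library was only just above the highest GDF8 Ab library, while libraries 4 and 5 were far above, and the difference was -3.03 ± 0.54 (adjusted p = 0.00985). Top2a, which untangles chromosomes before division, measured 3.9, 15.1, 6.84, 32.9 and 64.9 CPM with PLA Ab and 1.67, 1.34, 1.91, 0.466 and 0.755 CPM with GDF8 Ab (-2.97 ± 0.47, adjusted p = 0.00541). In the uninjured limb it was near the level of 3 reads with either antibody, at means of 0.204 and 0.345 CPM.

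Mitotic regulators at lower levels behaved in the same way. The mitotic cyclin Ccnb2 measured 1.33, 2.66, 1.89, 11.2 and 16.8 CPM with PLA Ab and 0.468, 0.389, 0.355, 0.0466 and 0.142 CPM with GDF8 Ab. Its difference was -2.13 ± 0.40 (adjusted p = 0.0106), and the 2 lowest GDF8 Ab values were at or below the level of 3 reads. Ccnb2 reached 1 CPM only with PLA Ab and met the filter through that group alone, so its lack of overlap is no added support. Foxm1, the transcription factor that drives many mitotic genes, averaged 7.19 CPM with PLA Ab and 0.399 CPM with GDF8 Ab (-2.14 ± 0.38). Cdk1, the kinase that starts mitosis, was lower by 2.07 ± 0.48 but overlapped, because GDF8 Ab library 3 at 1.07 CPM exceeded PLA Ab library 1 at 0.493 CPM. Also lower were the S-phase cyclin Ccna2 (-2.43), the ribonucleotide reductase subunit Rrm2 (-2.19), the spindle checkpoint kinase Bub1b (-2.02), its partner in anaphase control Cdc20 (-2.11) and E2f8 (-2.13), a repressor of the E2F family. Of the 24 members 20 were called with group weights, 15 without PLA Ab library 5, 9 without GDF8 Ab library 4, 6 without PLA Ab library 4 and none in the fit of the 10 libraries alone, and 6 belonged to the core.

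Promoters of these cell-cycle genes are shown because the members moved together and share known elements. In vertebrates the CHR element and the CCAAT box, which binds NF-Y, tie many mitotic genes to the G2 phase. In the windows of RefSeq (GRCm38.p6) from 250 bases before to 50 bases after a start site, 9979 of the 13137 tested genes had at least 1 promoter. The letters TTTGAA of the CHR, on either strand, were in 13 of 22 cell-cycle promoters (59.1%) against 11.9% of the 12814 promoters of tested genes and 12.1% of those of all genes called lower. The letters CCAAT, on either strand, were in 20 of the 22 (90.9%) against 37.3% and 36.6%. Both windows below lie on the minus strand, 5′ to 3′, with every TTTGAA and CCAAT and their reverse complements in capitals. That of Ccnb2 is chr9:70421505-70421804 and that of Top2a is chr11:99024140-99024439.
Ccnb2: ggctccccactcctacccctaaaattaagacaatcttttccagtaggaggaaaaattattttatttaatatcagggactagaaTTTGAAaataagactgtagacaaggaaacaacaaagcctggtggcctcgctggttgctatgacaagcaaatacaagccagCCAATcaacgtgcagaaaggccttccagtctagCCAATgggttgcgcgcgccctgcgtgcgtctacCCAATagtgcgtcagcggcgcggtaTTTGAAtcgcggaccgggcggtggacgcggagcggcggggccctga
Top2a: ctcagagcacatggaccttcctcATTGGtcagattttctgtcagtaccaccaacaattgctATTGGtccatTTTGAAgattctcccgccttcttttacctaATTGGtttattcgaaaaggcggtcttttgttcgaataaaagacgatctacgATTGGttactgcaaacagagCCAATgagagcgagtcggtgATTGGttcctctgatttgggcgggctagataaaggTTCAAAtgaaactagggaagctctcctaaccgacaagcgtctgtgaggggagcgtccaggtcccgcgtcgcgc
Ccnb2 held 3 CCAAT boxes on the coding strand, at -87, -54 and -21 from the start site, and a TTTGAA at 4. Top2a held 6 CCAAT or ATTGG matches. A match of letters is a description and not a bound site.

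Genes of new fibres were another group with members that did not overlap. Of 17 tested members of the fusion and embryonic fibre list, 9 (52.9%) were lower and none higher, with a median of -1.24. Without overlap were 4 members (23.5%), Mymx among them. Over all tested genes these shares were 18.3% and 4.31%. All 9 were called with group weights, 4 without GDF8 Ab library 4 and 3 without PLA Ab library 4. Mymk and Mymx encode the membrane proteins that carry out myoblast fusion. Mymk measured 4.1, 27.3, 4.71, 50.2 and 74.3 CPM with PLA Ab and 0.833, 2.9, 1.6, 0.186 and 0.236 CPM with GDF8 Ab (-3.37 ± 0.56, adjusted p = 0.00864). Mymx measured 2.02, 5.96, 2.82, 16.8 and 23.4 CPM with PLA Ab and 0.052, 0.563, 0.266, 0.0932 and 0.142 CPM with GDF8 Ab (-2.74 ± 0.41, adjusted p = 0.00541). All GDF8 Ab libraries were below all PLA Ab libraries for both genes. For Mymx this is no added support, because it reached 1 CPM only with PLA Ab and met the filter through that group alone. Embryonic myosin heavy chain, Myh3, had the largest difference of all called genes: 43.1, 451, 47.7, 590 and 810 CPM with PLA Ab and 19.9, 20.7, 14.4, 5.06 and 13.9 CPM with GDF8 Ab (-3.90 ± 0.68, adjusted p = 0.00971). Here PLA Ab libraries 2, 4 and 5 stood about an order of magnitude above libraries 1 and 3. Tnnt2, the cardiac troponin T of embryonic muscle, was lower by 2.86 ± 0.58 and Ncam1, the adhesion molecule of new and denervated fibres, by 2.11 ± 0.49, both with overlap.

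The fetal acetylcholine receptor followed the fusion genes. Of 18 tested receptor and denervation genes, 8 (44.4%) were lower and none higher, and 3 (16.7%) did not overlap. Over all tested genes these shares were 18.3% and 4.31%. Of the 18, 2 were called without PLA Ab library 4 and 2 without GDF8 Ab library 4. Chrng, the gamma subunit that is replaced after birth, measured 3.16, 17.3, 5.27, 33.7 and 52.3 CPM with PLA Ab and 0.52, 0.866, 0.932, 0 and 0.236 CPM with GDF8 Ab. That is a difference of -3.40 ± 0.47 (adjusted p = 0.00461), and Chrng was near the level of 3 reads in the control limb, at means of 0.0951 and 0.0642 CPM. Chrng reached 1 CPM only with PLA Ab and met the filter through that group alone, so its lack of overlap is no added support. Chrna1, the alpha subunit shared by fetal and adult receptors, was lower by 1.91 ± 0.44 with overlap. St8sia2, which adds polysialic acid to Ncam1, and the transcription factor Sox11 also did not overlap, at -2.10 ± 0.36 and -2.41 ± 0.44.

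Satellite-cell genes were lower by less. Of 14 tested, 7 (50%) were lower, none higher and 2 (14.3%) did not overlap, with a median of -0.65. Over all tested genes 18.3% were lower and 4.31% did not overlap in this direction. All 7 were called with group weights, 1 without GDF8 Ab library 4 and none without PLA Ab library 4. Pax7, the satellite-cell factor, averaged 8.75 CPM with PLA Ab and 2.89 CPM with GDF8 Ab (-1.16 ± 0.30, adjusted p = 0.0232). Myog, the factor of terminal differentiation, measured 12.6, 47.9, 17.1, 91.3 and 135 CPM with PLA Ab and 5.52, 18.3, 5.11, 4.66 and 4.15 CPM with GDF8 Ab (-2.54 ± 0.53, adjusted p = 0.0149). GDF8 Ab library 2 stood above the other 4 and overlapped with PLA Ab libraries 1 and 3. Heyl, a Notch target of quiescent satellite cells, was lower by 1.43 ± 0.28, and Itga7, the laminin receptor of fibres and myoblasts, by 0.97 ± 0.22, both without overlap.

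Myogenic factors bind E-boxes, CANNTG, and the promoters of Chrng and Myog are shown with every E-box in capitals. Both lie on the plus strand of chromosome 1 (GRCm38.p6), at chr1:87205561-87205860 and chr1:134289754-134290053.
Chrng: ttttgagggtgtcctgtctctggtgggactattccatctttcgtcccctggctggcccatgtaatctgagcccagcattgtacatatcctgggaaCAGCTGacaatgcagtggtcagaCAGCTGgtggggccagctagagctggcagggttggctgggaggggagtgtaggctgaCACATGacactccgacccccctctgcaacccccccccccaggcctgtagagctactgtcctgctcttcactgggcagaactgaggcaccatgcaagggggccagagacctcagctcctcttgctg
Myog: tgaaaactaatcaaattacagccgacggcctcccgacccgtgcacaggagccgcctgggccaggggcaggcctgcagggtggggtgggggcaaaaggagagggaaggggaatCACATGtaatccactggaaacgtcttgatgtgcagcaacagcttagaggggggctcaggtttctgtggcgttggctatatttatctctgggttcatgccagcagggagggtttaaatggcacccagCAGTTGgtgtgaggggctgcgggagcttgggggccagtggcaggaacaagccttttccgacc
Chrng held 3 E-boxes, 2 of them CAGCTG at -155 and -132, and Myog held 2. An E-box was in 12 of 15 promoters of the receptor list (80%) and in 10 of 13 of the fusion list (76.9%), against 64.1% of promoters of tested genes, so these letters are common everywhere.

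**Figure D2:**
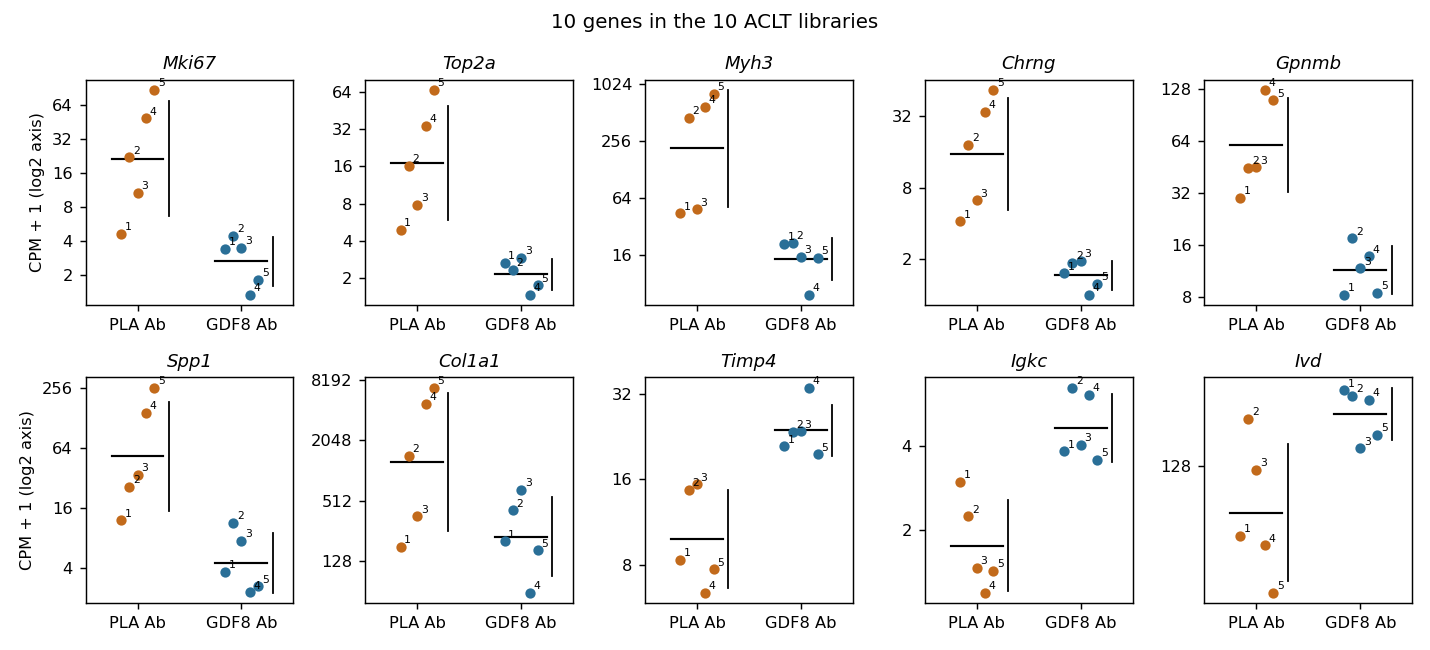
CPM + 1 on a log2 axis of 10 genes in PLA Ab libraries 1 to 5 (orange) and GDF8 Ab libraries 1 to 5 (blue) of the ACLT limb; the digits are library numbers, the horizontal bar is the mean of the log2 values and the vertical bar spans 1 SD either side. The GDF8 Ab points lie below every PLA Ab point for Mki67, Top2a, Myh3, Chrng, Gpnmb and Spp1, above every one for Timp4 and Igkc, and overlap with PLA Ab for Col1a1 and Ivd.

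Among macrophage genes, those of lipid-handling, lysosome-rich macrophages had the larger share without overlap. On the list of repair macrophages and lysosomes, 15 of 19 tested genes were lower, none higher, and 10 did not overlap (median -1.32). On the list of general macrophage and monocyte markers, 17 of 20 were lower (median -1.80) but 3 did not overlap. Over all tested genes 18.3% were lower and 4.31% did not overlap in this direction. Of the 19 repair genes 13 were called with group weights, 7 without GDF8 Ab library 4 and 5 without PLA Ab library 4. Of the 20 general markers 15 were called with group weights, 3 without GDF8 Ab library 4 and 1 without PLA Ab library 4. Gpnmb, a lysosomal glycoprotein of phagocytes, measured 28.9, 43.6, 43.9, 125 and 109 CPM with PLA Ab and 7.18, 16.4, 10.7, 12.7 and 7.45 CPM with GDF8 Ab. It had the smallest adjusted p of the comparison together with Chrng (-2.41 ± 0.33, adjusted p = 0.00461). Spp1, osteopontin, measured 11.2, 25.4, 33.6, 145 and 259 CPM with PLA Ab and 2.71, 10.5, 6.53, 1.31 and 1.65 CPM with GDF8 Ab (-3.54 ± 0.61). Lgals3, galectin-3, was lower by 2.39 ± 0.37, the lipid-sensing receptor Trem2 by 2.37 ± 0.42 and Atp6v0d2, a proton pump subunit of phagocyte lysosomes, by 1.32 ± 0.24, each without overlap.

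Cd68, the pan-macrophage lysosomal protein, measured 12.4, 17.7, 12.3, 44.4 and 64.6 CPM with PLA Ab and 3.64, 4.11, 7.55, 2.24 and 3.3 CPM with GDF8 Ab (-2.36 ± 0.36, adjusted p = 0.00541). The fractalkine receptor Cx3cr1 was lower by 2.54 ± 0.48 without overlap. Mpeg1, the pore-forming perforin-2, was lower by 2.51 ± 0.49 with GDF8 Ab library 3 at 22.4 CPM above PLA Ab library 1 at 20.4 CPM. The scavenger receptor Msr1 (-2.02 ± 0.37), the anaphylatoxin receptor C3ar1 (-2.33 ± 0.43) and the metalloprotease Adam8 (-1.97 ± 0.30) were lower without overlap and belonged to the core. Of the 9 tested phagocyte oxidase and Fc receptor genes all were lower, beside 18.3% of all tested genes, and 2 did not overlap (22.2% beside 4.31%). Cybb, the catalytic subunit of the oxidase, was at -1.91 ± 0.40. Without GDF8 Ab library 4, 1 of these 9 was called, and without PLA Ab library 4 none.

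Sterol efflux genes sat beside the macrophage group. Liver X receptors sense oxysterols and raise Abca1, Abcg1, Mylip and Lpcat3. Of 14 tested genes of this kind 7 (50%) were lower and 4 (28.6%) did not overlap. Over all tested genes these shares were 18.3% and 4.31%. Of the 14, 3 were called without PLA Ab library 4 and 4 without GDF8 Ab library 4. This list was assembled after the values of some members had been seen. Abca1, which exports cholesterol, measured 48.9, 46.4, 37.5, 70.9 and 89.1 CPM with PLA Ab and 23.6, 30.9, 25.8, 19.1 and 21 CPM with GDF8 Ab (-1.20 ± 0.22, adjusted p = 0.00988). Abcg1 was lower by 1.75 ± 0.26 (adjusted p = 0.00541). Mylip, the ligase that removes the LDL receptor, measured 26.7 to 37.4 CPM with PLA Ab and 16.4 to 20.1 CPM with GDF8 Ab (-0.72 ± 0.11, adjusted p = 0.00541). Abca1 and Mylip were also lower in the control limb, at means of 16.5 against 27.5 CPM and 16.1 against 23.1 CPM, with unadjusted p of 0.00524 and 0.000293 and adjusted p of 0.543 and 0.346. Abcg1 was not, at 1.44 against 1.26 CPM.

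Other leukocyte lists ranged from nearly all members called to shares near the background of 18.3%. The background share lower without overlap was 4.31%. On the list of leukocyte cytoskeleton and thymosin genes, which includes many genes used by dividing and moving cells, 23 of 24 were lower and 6 did not overlap, Tmsb10 by 2.48 ± 0.49 and Lgals1 by 1.13 ± 0.25. Of these 24, 7 were called without PLA Ab library 5, 4 without GDF8 Ab library 5, 1 without GDF8 Ab library 4 and none without PLA Ab library 4. Of 21 cytokine and receptor genes 14 (66.7%) were lower and 2 (9.52%) did not overlap. Among these, Tgfb1, the ligand TGF-beta 1, averaged 20 CPM with PLA Ab and 5.66 CPM with GDF8 Ab (-1.42 ± 0.34, adjusted p = 0.0191), and the interleukin 1 receptor Il1r1 was lower by 1.34 ± 0.29 without overlap. Of 13 chemokines 3 were lower (23.1%), of which Pf4, also a platelet gene, did not overlap (-1.27 ± 0.35). Of 15 complement genes 8 (53.3%) were lower, with C1qb at -1.90 ± 0.46, and 1 did not overlap (6.67%, near the background). Of 17 interferon-stimulated genes 7 were lower and none separated, with Isg15 at -1.01 ± 0.26. Of 9 antigen-presenting cell genes 2 were lower (22.2%). Neutrophil markers were hardly measurable, with 2 of 14 listed genes tested and 1 lower, the receptor Csf3r (-1.24 ± 0.35). Mast cell genes did not pass in either direction (0 of 4). Without PLA Ab library 4 the calls were 0 of 21 cytokine and receptor genes, 0 of 13 chemokines, 1 of 15 complement genes and 0 of 17 interferon-stimulated genes, and without GDF8 Ab library 4 they were 0, 0, 1 and 0.

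Matrix genes were lower on average and did not separate. Of 19 tested collagens 13 were called lower (68.4% beside 18.3% of all tested genes) and none higher. The median was -1.57, and none had its groups apart. Col1a1, the main chain of type I collagen, measured 177, 1422, 357, 4693 and 6803 CPM with PLA Ab and 200, 409, 653, 60.9 and 162 CPM with GDF8 Ab. Its difference was -2.48 ± 0.79 (adjusted p = 0.0397), the exact permutation p was 0.0952, and PLA Ab libraries 1 and 3 lay inside the range of GDF8 Ab. Col3a1, of type III collagen, was lower by 2.07 ± 0.65 (adjusted p = 0.0385) and Col5a1, which starts fibril assembly, by 2.41 ± 0.66 (adjusted p = 0.0272). None of the 19 was called without PLA Ab library 4 or 5 or GDF8 Ab library 4 or 5, with medians of -1.25, -1.22, -1.39 and -1.57, and 7 were called with group weights. Without PLA Ab libraries 4 and 5 together the median was -0.61. These lists of matrix genes include genes the study picked from the same libraries, so a direction in their counts is no independent evidence.

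The same held for the enzymes and proteins that build the matrix. Of 23 collagen processing genes 13 were lower (median -1.22, and -0.32 without PLA Ab libraries 4 and 5) and none separated, among them the collagen cross-linking enzyme Lox, with 10.9, 110, 28.8, 257 and 536 CPM with PLA Ab and 13.4, 35.9, 28.1, 7.32 and 11.9 CPM with GDF8 Ab (-2.34 ± 0.71, adjusted p = 0.0354). Of 24 matricellular genes 9 were lower and 1, Spp1, separated (4.17%, beside 4.31% of all tested genes). Postn, periostin, measured 25.9, 885, 105, 2295 and 2952 CPM with PLA Ab and 52.1, 196, 169, 7.65 and 54.6 CPM with GDF8 Ab. Its difference of -2.86 ± 1.03 did not pass (adjusted p = 0.0566, exact permutation p = 0.111). Of 23 proteases and inhibitors 12 were lower, 2 of them apart (8.7% of the 23, beside 4.31%), and 1, Timp4, was higher. Of 9 tested myofibroblast and smooth muscle genes 6 were lower, with Acta2, smooth muscle actin, at -1.93 ± 0.49. Without PLA Ab library 4 the calls lower were 0 of the 23 processing genes, 1 of the 24 matricellular genes, 1 of the 23 proteases and inhibitors and 0 of the 9 myofibroblast genes, and without GDF8 Ab library 4 they were the same in number. Fibroblast and progenitor markers were called at 4 of 17, close to the background of 18.3%, and Pdgfrb was lower by 0.98 ± 0.29.

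The split by Y-linked expression set matrix genes apart from cell-cycle genes. Among the 7 libraries without it (3 PLA Ab and 4 GDF8 Ab), the GDF8 Ab values were all below the PLA Ab values for 19 of 19 collagens and 22 of 24 cell-cycle genes, against 45% of all tested genes. Among the 3 libraries with it (2 PLA Ab and 1 GDF8 Ab), the GDF8 Ab library was below both PLA Ab libraries for 0 of 19 collagens and above both for 17, against 28.2% below and 35.9% above over all tested genes. For cell-cycle genes it was below both for 22 of 24 and above both for none. Repair macrophage genes were below both for 12 of 19 and above for 5, general macrophage genes for 5 and 5 of 20, and interferon-stimulated genes for 1 and 15 of 17. With 1 GDF8 Ab library carrying Y-linked expression these are values with no test, and whether sex had a part in them was not tested. In a fit of these 7 and the 7 control-limb libraries without Y-linked expression, 6204 genes were lower and 397 higher, and with Y-linked expression as a covariate of all 20 libraries 4317 and 216.

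**Figure D3:**
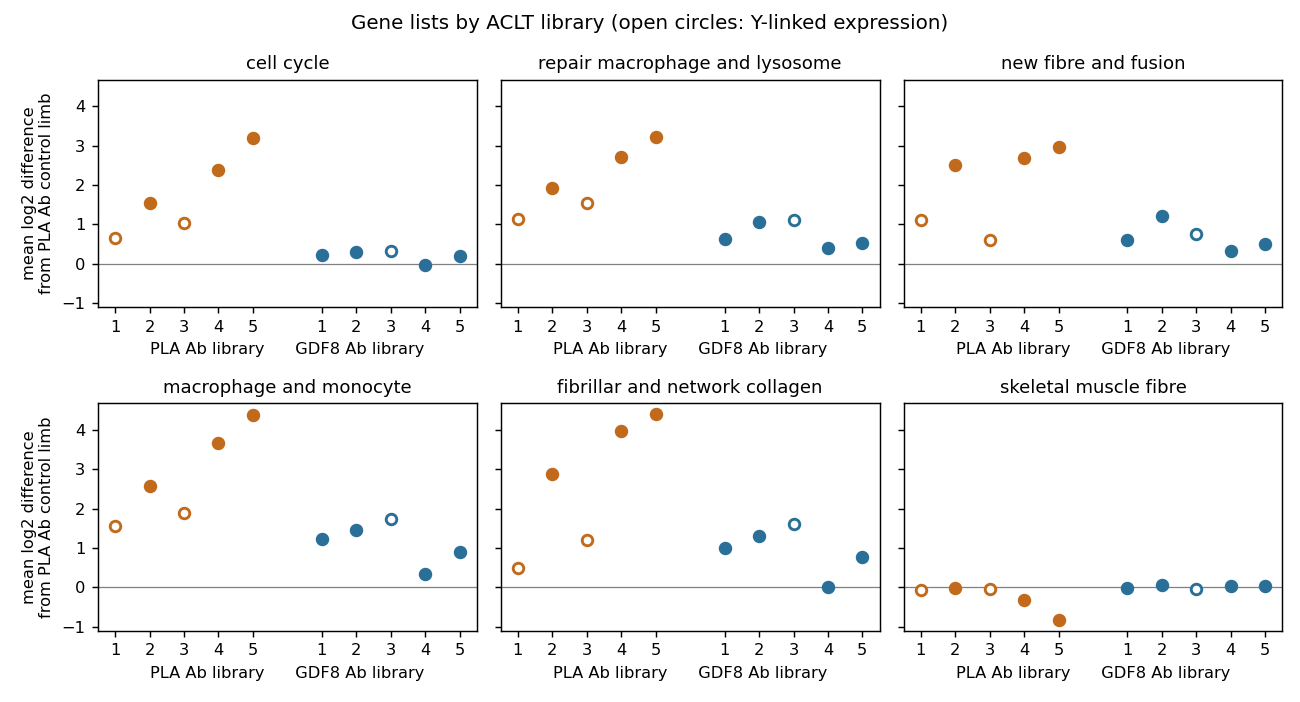
Mean over a list's tested genes of log2(CPM + 1) in each ACLT library minus the mean of the PLA Ab control limb; orange is PLA Ab, blue is GDF8 Ab, and open circles are libraries with Y-linked expression. Cell-cycle genes lie between 0.64 and 3.19 with PLA Ab and between -0.04 and 0.31 with GDF8 Ab without overlap, whereas collagens lie between 0.50 and 4.41 and between 0.02 and 1.62 and overlap.

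Genes on the myostatin and activin list were called about as often as other genes in the full fit. The list is wider than GDF8 signalling and also holds TGF-beta genes. Of its 19 tested genes 4 were lower and none higher, a share of 21.1% beside the background of 18.3%. They were the type II TGF-beta receptor Tgfbr2 (-0.94 ± 0.28), the ligand-binding protein Fstl3 (-0.98 ± 0.22), the TGF-beta binding protein Ltbp3 (-0.65 ± 0.15) and Mdfi (-0.98 ± 0.33), an inhibitor of myogenic factors, none without overlap. Of 17 TGF-beta target genes 3 were lower, 17.6% and so at the background, with Ltbp2 at -2.82 ± 0.75. Of 21 IGF and growth genes 8 were lower (38.1%), 4 with median-of-ratios scaling and none without PLA Ab library 4 or GDF8 Ab library 4. Igf1, the growth factor that macrophages and fibres both make, averaged 76.7 CPM with PLA Ab and 18.4 CPM with GDF8 Ab (-1.82 ± 0.41, adjusted p = 0.0167) with overlap. Homer2, a scaffold protein of muscle, was at 0.85 ± 0.35 and did not pass (adjusted p = 0.0812).

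Atrophy genes were mostly not called in the full fit. Of 19 tested, 1 was called, as lower (5.26%, beside 18.3% of all tested genes). The ubiquitin ligase Trim63 (MuRF1) measured 204, 155, 191, 201 and 335 CPM with PLA Ab and 171, 253, 197, 158 and 177 CPM with GDF8 Ab (-0.15 ± 0.18, adjusted p = 0.537), and its sign turned with median-of-ratios scaling. Fbxo32 (atrogin-1) was at 0.08 ± 0.26 (adjusted p = 0.828). The called gene was Eda2r, a death-domain receptor of the TNF family, with 24.6 to 66 CPM with PLA Ab and 12.7 to 24 CPM with GDF8 Ab (-1.02 ± 0.29, adjusted p = 0.0308) and no overlap. It was also lower in the control limb, at 14.4 against 26.5 CPM (-0.90 ± 0.29, unadjusted p = 0.00601, adjusted p = 0.543). With Y-linked expression as a covariate, 5 of the 19 atrophy genes were lower and 1 higher, beside 4317 and 216 of all 13137. In the libraries without Y-linked expression 6 were lower and 2 higher, beside 6204 and 397. Of 20 immediate early genes none was called in either direction, 0 at an adjusted p under 0.05 in the weighted fit too, and Nr4a3 was at 0.85 ± 0.35 (adjusted p = 0.0819).

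In the full fit, ribosomal protein genes were called about as often as other genes. Of 81, 18 were lower (22.2% beside 18.3% of all tested genes) and 1 separated (1.23% beside 4.31%), Rpl3 at -1.48 ± 0.35. With median-of-ratios scaling 2 were called, with group weights 3, and without PLA Ab library 4 none. Other settings went the opposite way. With Y-linked expression as a covariate 65 of the 81 were lower, beside 4317 of all 13137 tested genes. In the libraries without Y-linked expression 76 were lower, beside 6204 of all tested genes. Eef1a1, the elongation factor that growing cells use in place of the adult muscle form, measured 387, 915, 415, 1585 and 2451 CPM with PLA Ab and 390, 388, 432, 223 and 290 CPM with GDF8 Ab (-1.41 ± 0.37, adjusted p = 0.0251), with overlap. Among the called genes of highest level, the lysosomal saposin precursor Psap was lower by 0.43 ± 0.11 and cathepsin D, Ctsd, by 0.67 ± 0.15, the latter without overlap. Desmin, Des, was the only 1 of 15 muscle fibre markers called, at -0.42 ± 0.12, and was at 2537 against 3230 CPM in the control limb.

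**Figure D4:**
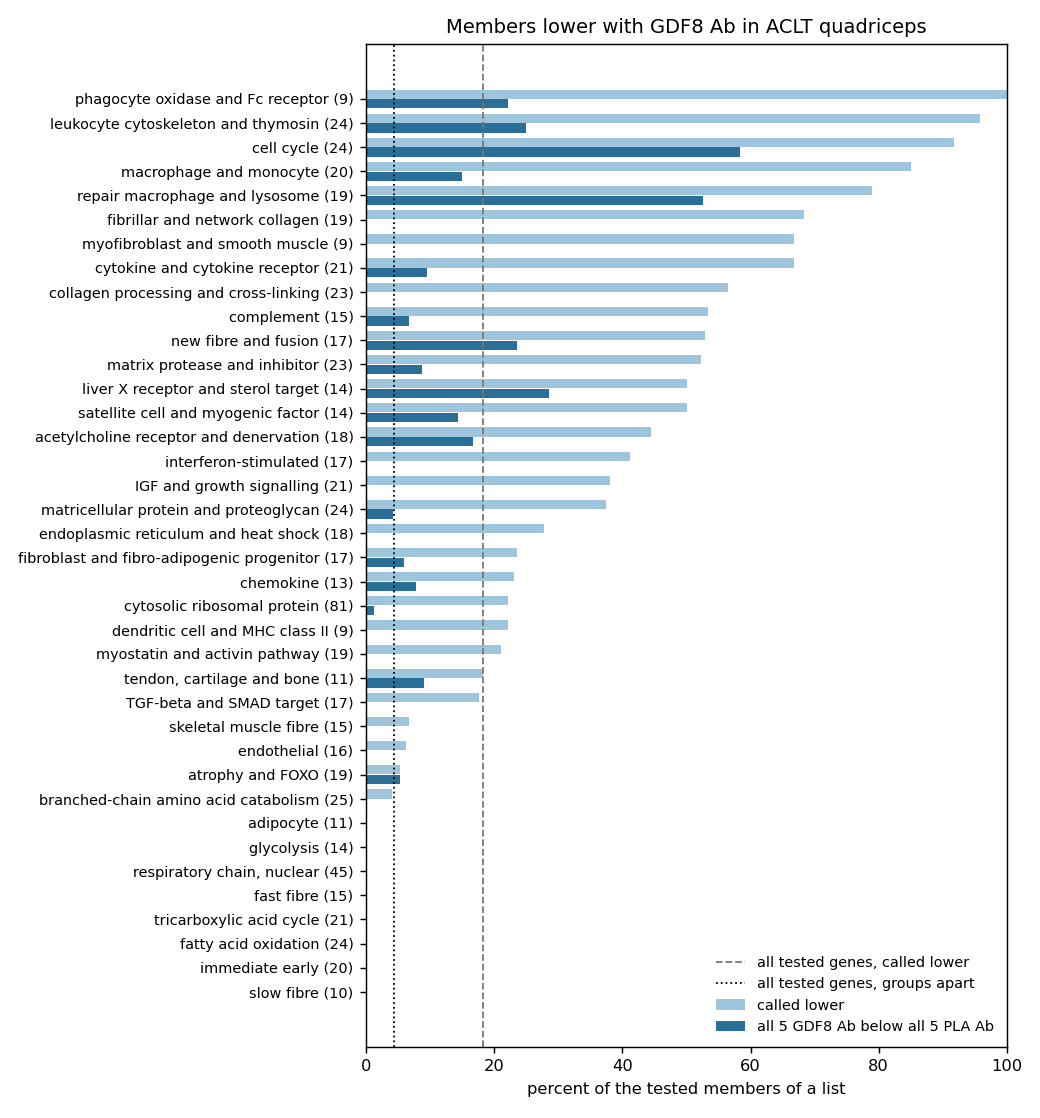
For each list with at least 9 tested genes (number in brackets), the percent of members called lower (light bars) and the percent with all 5 GDF8 Ab libraries below all 5 PLA Ab libraries (dark bars), with the shares over all tested genes as dashed (18.3%) and dotted (4.31%) lines. Cell-cycle (58.3%) and repair macrophage genes (52.6%) have the longest dark bars, and collagens have none. Dark bars include members that met the filter through PLA Ab alone, such as Ccnb2, whose lack of overlap is no added support.

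The 103 higher genes had another makeup. They included 6 of 25 genes of branched-chain amino acid breakdown, 24% beside the background of 0.784%, while 1 was lower. Ivd, isovaleryl-CoA dehydrogenase of leucine breakdown, measured 94.5, 155, 125, 90.8 and 74.3 CPM with PLA Ab and 175, 171, 137, 168 and 145 CPM with GDF8 Ab (0.60 ± 0.15, adjusted p = 0.0223). Dbt, the core of the branched-chain ketoacid dehydrogenase, was higher by 0.60 ± 0.16 (adjusted p = 0.0248) and Pccb, a propionyl-CoA carboxylase subunit, by 0.31 ± 0.08 (adjusted p = 0.0254) without overlap. The lower one, Bcat1, is the cytosolic transaminase of proliferating cells rather than of muscle (-1.84 ± 0.53). With median-of-ratios scaling 16 of the 25 were higher and the median moved from 0.25 to 0.46. With group weights 3 were higher, and none of the 25 was called when any one of PLA Ab libraries 4 and 5 and GDF8 Ab libraries 4 and 5 was left out. PLA Ab libraries 4 and 5, which held the smallest share of muscle fibre RNA, were also the lowest libraries for Ivd. The study named amino acid metabolism, a wider group, from the same libraries. On the other mitochondrial lists 0 of 21 tricarboxylic acid cycle, 0 of 24 fatty acid oxidation and 0 of 45 respiratory chain genes passed, with or without group weights, and the medians were 0.24, 0.21 and 0.24. With median-of-ratios scaling 5, 0 and 5 passed as higher (medians 0.46, 0.44 and 0.46), and without PLA Ab libraries 4 and 5 none did (medians 0.04, 0.03 and 0.04). Atp5b, of the ATP synthase, was at 0.26 ± 0.13 (adjusted p = 0.153). Fast fibre genes had a median of 0.31 with 0 of 15 called, and Myh4, the fast IIB myosin, was at 0.23 ± 0.26 (adjusted p = 0.541).

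Of 5 tested immunoglobulin and J chain transcripts, which plasma cells and other B-lineage cells make, 3 of low level were higher with GDF8 Ab in the ACLT limb and none passed in the control limb. Jchain, which joins secreted IgA and IgM, measured 0.789, 0.789, 0.462, 0.142 and 0.561 CPM with PLA Ab and 1.67, 2.38, 2.44, 2.52 and 1.32 CPM with GDF8 Ab. It was the only higher gene of the core (0.98 ± 0.17, adjusted p = 0.00971). Jchain reached 1 CPM only with GDF8 Ab and so met the filter through that group alone. Its lack of overlap is therefore no added support. Igkc, the kappa light-chain constant region, measured 1.97, 1.23, 0.462, 0.189 and 0.421 CPM with PLA Ab and 2.81, 5.45, 3.02, 5.08 and 2.55 CPM with GDF8 Ab (1.40 ± 0.29, adjusted p = 0.0142). Igha, the IgA heavy chain, was higher by 1.35 ± 0.33 (adjusted p = 0.0204), with PLA Ab library 1 at 6.76 CPM inside the GDF8 Ab range. In the control limb the means were 2.63 against 0.494 CPM for Igkc, 3.1 against 0.788 CPM for Igha and 1.08 against 0.41 CPM for Jchain, with unadjusted p of 0.000431, 0.002 and 0.00486 and adjusted p of 0.346, 0.446 and 0.543. Ighm, the IgM heavy chain, showed no such difference (-0.13 ± 0.74) and split by Y-linked expression instead, at 147, 289 and 227 CPM in the 3 libraries with it and 31 to 56.3 CPM in the other 7. The immunoglobulin list was drawn up after Jchain and Igkc had been seen.

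Several further higher genes were higher to a like degree in the uninjured limb. Timp4, an inhibitor of matrix metalloproteinases that muscle expresses, measured 7.35, 13.7, 14.4, 5.4 and 6.73 CPM with PLA Ab and 19.9, 22.5, 22.6, 32.6 and 18.6 CPM with GDF8 Ab (1.27 ± 0.26, adjusted p = 0.0139), without overlap. Its control limb means were 30.6 and 13.8 CPM (1.15 ± 0.26, unadjusted p = 0.000292, adjusted p = 0.346). Ppp1r3c, which targets a phosphatase to glycogen, averaged 641 against 312 CPM (0.93 ± 0.30) and in the control limb 715 against 363 CPM. The repressor Bcl6 was at 0.53 ± 0.14 and 0.62 ± 0.14 in the ACLT and control limb, the pacemaker channel Hcn4 at 0.87 ± 0.25 and 0.90 ± 0.25, and the muscle methyltransferase Mettl21e at 0.90 ± 0.28 and 0.95 ± 0.28. None of them passed in the control limb alone (smallest adjusted p over all genes = 0.187). The glucocorticoid-induced factors Klf15 (0.65 ± 0.21) and Zbtb16 (0.71 ± 0.23) were higher in the ACLT limb, and like Cntfr (1.18 ± 0.35), the CNTF receptor, they were picked out after their values were seen.

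Called genes of the 2 directions therefore had different values in the other limb. For the 103 higher genes the median difference was 0.41 in the ACLT limb and 0.17 in the control limb, and 93 of them (90.3%) were above 0 there. For the 2406 lower genes the medians were -0.81 and -0.04, and 61.2% were below 0 in the control limb, as were 60.7% of all tested genes. The limbs of a mouse are not independent, and these shares are a description. Cilp, a cartilage and tendon matrix protein, was at 46.6 against 216 CPM in the ACLT limb (-1.90 ± 0.49) and 23.3 against 56.5 CPM in the control limb. Lcn2, lipocalin-2, was at 0.976 against 7.27 CPM (-1.81 ± 0.49) and 0.842 against 4.26 CPM, and the NF-kB subunit Relb was at -1.04 ± 0.26 and -0.65. Lcn2 and Relb were picked out after their values were seen.

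**Figure D5:**
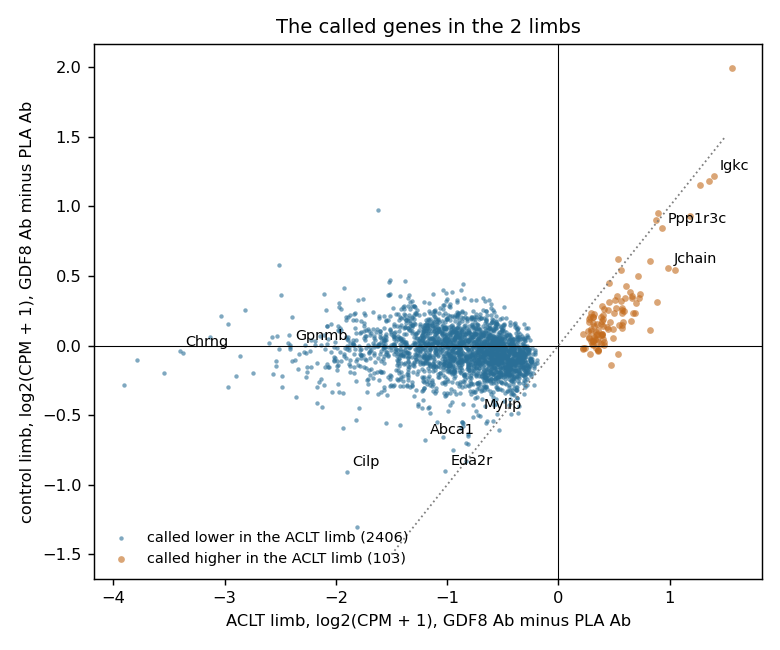
Difference in mean log2(CPM + 1), GDF8 Ab minus PLA Ab, in the ACLT limb against the same difference in the control limb for the genes called in the ACLT limb; the dotted line marks equal differences. The lower genes (blue) scatter around 0 in the control limb with a median of -0.04, while 93 of the 103 higher genes (orange) lie above 0 there.

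Whether the antibody difference itself depended on injury was tested as an interaction. No gene passed (smallest adjusted p = 0.241), with 2138 genes at an unadjusted p under 0.05, and 43 passed with group weights. Without PLA Ab library 1 there were 1102, without library 3 there were 4, and in the 7 libraries of the ACLT limb without Y-linked expression with the matching control libraries there were 3267. In the control limb no gene passed either (790 at an unadjusted p under 0.05), and 9 did with group weights. The unadjusted interaction p was under 0.05 for 19 of 24 cell-cycle genes, 17 of 20 macrophage genes and 11 of 19 collagens. It was so for 1 of 25 branched-chain amino acid genes, and for 2138 of all 13137 tested genes. The first 3 lists were described for their ACLT-limb difference and had control limb medians of -0.05, 0.02 and -0.04. Their counts therefore repeat that difference and are no added support. They also come from the full fit, whose SE is too small for genes of unequal spread. For Gpnmb the interaction was -2.42 (unadjusted p = 5.44e-05), for Adam8 -2.28 (unadjusted p = 2.91e-05) and for Timp4 0.12 ± 0.37 (unadjusted p = 0.744). A difference between limbs was therefore not shown for any single gene at the adjusted threshold.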

How the data were processed

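Quadriceps RNA of 20 libraries, 5 in each of 4 groups, was analysed. Per the labels, the processing notes name STAR 2.7.3a, Partek and DESeq2 and the builds mm10 and mm39, and which build and annotation gave the final table is not given in the sources used here. The deposited table holds CPM, in which the authors scaled each library to 1000000. Taking the commonest low value of a library as 1 read, 74.0 to 79.6% of its low values lay within 0.02 of a whole read, so whole reads were not recovered and no count test was run. The same value put the depths at 15600000 to 24200000 reads, and 3 reads at 0.124 to 0.192 CPM.

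Genes with at least 1 CPM in 5 of the 10 ACLT libraries were tested on log2(CPM + 1) with limma 3.58.1 in R 4.3.3 (means of 4 groups, trended prior, all 20 libraries), with Benjamini-Hochberg adjustment over all tested genes and a threshold of 0.05. The fit was tested on simulated independent genes with 1 SD per gene in all groups. That test cannot show how the fit performs with the unequal spread of these libraries. Values are log2 differences ± SE. By the study's text each group was 5 mice and samples were not pooled; extraction and sequencing batches are not given in the sources used here.

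The members of gene lists, and the genes named, were chosen with earlier results of these data known. The rule for named genes took Mstn; the 12 called genes of smallest p in each direction whose groups did not overlap; the 12 largest called falls and rises under 10 CPM; up to 4 called members of each list, or its most abundant member; 8 genes of the study text; and the 8 most abundant called genes in each direction. Not all are printed. Genes outside the rule, and the immunoglobulin and liver X receptor lists, were added after their values were seen. Alternatives were scaling, pseudocounts of 0.1 and 0.5, filters, group weights, robust moderation, the mouse block, Y-linked expression and leaving out libraries. Promoters were taken from RefSeq (GRCm38.p6). Some genes are not reported here.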

Additional observations from a re-analysis of the deposited data

Results flagged for a closer look

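In 7 of 198 sets of 5 libraries (99 genes in the PLA Ab and in the GDF8 Ab ACLT group), 1 library lay far from the other 4 by Dixon's criterion for 5 values (0.71), which chance alone meets in about 1 set in 20. GDF8 Ab library 3 was highest for Ighm (227 CPM), Il1r1 (11.4 CPM) and Cdk1 (1.07 CPM), and it was the GDF8 Ab library with Y-linked expression. GDF8 Ab library 2 was highest for Myog (18.3 CPM) and Calr (138 CPM). GDF8 Ab library 4 was lowest for Pf4 (2.05 CPM). PLA Ab library 1 was highest for Igha (6.76 CPM).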

How the results depend on the processing

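The counts of called genes and the sizes of differences both depended on the settings. The median difference of the 19 collagens was -1.57 in the full fit. It was -0.61 without PLA Ab libraries 4 and 5 and -3.17 in the libraries without Y-linked expression. In the ACLT limb, where 2509 genes were called, upper-quartile scaling gave 1671, a filter of 10 CPM 532, group weights 1304, the 10 ACLT libraries alone 0, Y-linked expression as a covariate 4533, only the libraries without Y-linked expression 6601, and leaving out PLA Ab libraries 4 and 5 together 69. Leaving out 1 library gave 38 to 5290. Median-of-ratios scaling gave 1736, with 524 of them higher. In the control limb, with 0 called, group weights gave 9, the libraries without Y-linked expression 2, and leaving out 1 library 0 to 1. For the interaction, also with 0, group weights gave 43, the libraries without Y-linked expression 3267, and leaving out 1 library 0 to 1102. The filter changes which genes enter the adjustment; the cause of the other shifts was not tested. Limbs with the same number matched in Y-linked expression in 10 of 10 pairs, but their deviations from the group means correlated above 0.1 in only 8 of 10 (0.0116 to 0.491), so the samples are taken to share a number. With that number as a replicate block within each antibody, 2378 genes were called in the ACLT limb and 0 in the control limb and the interaction. There 1 of the 99 genes named lost its call. With the 10 ACLT libraries alone 89 of the 99 lost their call. Without PLA Ab library 4 it was 63, and without PLA Ab libraries 4 and 5 together 61. Without GDF8 Ab library 4 it was 55, and without GDF8 Ab library 5 it was 46.

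Signs turned only for genes that were not called. Ighm was at 0.09 and 0.08 with median-of-ratios and upper-quartile scaling, 0.34 with the Y-linked covariate and 0.43 in the libraries without Y-linked expression, and between -0.57 and 0.37 with 1 library left out. Trim63 was at 0.07 with either scaling, at 0.05 without PLA Ab libraries 4 and 5 and between -0.26 and 0.01 with 1 library left out. Fbxo32 was at -0.06 and Myh4 at -0.03 without PLA Ab libraries 4 and 5, and Fbxo32 was between -0.08 and 0.27 with 1 library left out. Depth limits the genes near 3 reads, such as Chrng and Mymx with GDF8 Ab, whose fold depends on the pseudocount.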

Other observations

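Slow fibre content differed widely between libraries of the same group. Myh7, the slow myosin heavy chain, measured 0.74, 762, 86.5, 123 and 11.8 CPM in PLA Ab libraries 1 to 5 and 1594, 600, 290, 3.26 and 190 CPM in GDF8 Ab libraries 1 to 5 of the ACLT limb, and its difference of 2.05 ± 1.66 did not pass (limma adjusted p = 0.365). None of 10 slow fibre genes was called in either direction, in the weighted fit also. Fat cell genes were likewise not called (0 of 11, median 0.14).

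Of 18 endoplasmic reticulum and heat shock genes 5 were lower (27.8%, and none without PLA Ab library 4), with the disulfide isomerase Pdia3 at -1.22 ± 0.37 and Calr, calreticulin, at -0.67 ± 0.23, both with overlap. Among vessel markers 1 of 16 endothelial genes was called (6.25%), Plvap at -0.56 ± 0.19, and 2 of 6 pericyte genes were (33.3%, and none with group weights), Notch3 (-0.78 ± 0.21) and Cspg4 (-0.93 ± 0.27). Of 11 tendon, cartilage and bone genes 2 were lower (18.2%, the share of all tested genes being 18.3%), Cilp and the bone factor Runx2 (-1.59 ± 0.40). None of 7 Schwann and nerve genes and none of 14 glycolysis genes was called, again also with group weights.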
